A study of Rattus norvegicus with 28 samples.

Results

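The EGF receptor and its ligands were followed in primary rat hepatocytes exposed to a dioxin and to dibenzofurans. The 8 genes were taken by their names on the array: the ligands Ereg, Areg, Hbegf, Tgfa, Btc and Egf and the receptors Egfr and Erbb3. The names matched 8 probes of 7 genes among 41012 probes and 37806 gene names. No probe carried the name Hbegf. Its probe is filed under the older name Dtr and was matched by its RefSeq accession, so that all 8 genes were measured, Egfr by 2 probes. All 8 passed the filter on dim probes and were tested in all 7 groups. In the test channel Ereg met the filter only at the higher doses. Its DMSO channel was well above background on 16 of 28 arrays, where 14 were asked for, 5 of them with untreated cells or lower doses. None of the 8 genes was saturated on any array.

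Liver cells came from 2 Sprague-Dawley rats, called A and B here, both adult and female. The hepatocytes were cultured for 48 h in medium with ITS+ and 0.1 uM dexamethasone and then treated for 24 h. The groups were untreated cells, TCDD at 0.01 and 1 nM, TCDF at 0.1 and 10 nM, and PeCDF at 0.02 and 2 nM, each set against cells given 0.1% DMSO, the solvent of the compounds. TCDD is a chlorinated dibenzo-p-dioxin, and TCDF and PeCDF are chlorinated dibenzofurans. All groups shared the culture medium, and the RNA of 3 dishes was pooled, so that the spread of a group is that between 2 animals. Each group had 4 Agilent 2-colour arrays, 2 per animal with the dyes swapped, and every array held the DMSO RNA of the same animal in its other channel. The groups of an animal are thus set against its DMSO cells, and the labels do not say whether the same DMSO RNA preparation served all arrays. The image files had been read in 2 sessions, with untreated cells and TCDD in the first and the furans in the second, so that TCDD and furans cannot be told apart from the session.

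The EGF receptor is a tyrosine kinase at the cell surface that is switched on when a ligand makes it pair with a copy of itself or with another ErbB receptor. Its ligands are made as membrane-bound precursors and are released by proteases, and the receptor signals through ERK, AKT and STAT3. Hepatocytes carry much EGF receptor, and its ligands drive their growth in culture and in the regenerating liver. The compounds act through the aryl hydrocarbon receptor (AHR), which binds DNA at the dioxin response element, with the core letters GCGTG. Ereg has been described as a target of AHR in mouse cells.

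The promoters of 3 members are shown because the genes lie on the same chromosome and behaved differently: Areg, which was higher with TCDD, Btc, its neighbour, which passed no test against DMSO in the fit of all groups, and Egfr, which was lower. Each is the 250 bases before the annotated start, 5' to 3' on the gene's own strand, from RefSeq (GRCr8). They lie at chr14:17265642-17265891 (minus strand) for Areg, chr14:16992418-16992667 (plus strand) for Btc and chr14:95378376-95378625 (plus strand) for Egfr. Capitals mark GCGTG, or CACGC where it lies on the other strand.
Areg: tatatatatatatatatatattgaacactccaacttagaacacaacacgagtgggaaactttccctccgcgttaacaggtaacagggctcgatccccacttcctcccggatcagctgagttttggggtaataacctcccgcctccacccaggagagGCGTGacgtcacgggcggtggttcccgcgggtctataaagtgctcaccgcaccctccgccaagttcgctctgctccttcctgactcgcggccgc
Btc: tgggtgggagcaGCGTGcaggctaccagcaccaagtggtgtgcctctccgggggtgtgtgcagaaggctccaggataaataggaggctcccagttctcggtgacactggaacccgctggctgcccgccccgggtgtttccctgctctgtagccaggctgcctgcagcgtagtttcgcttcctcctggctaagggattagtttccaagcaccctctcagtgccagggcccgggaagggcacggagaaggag
Egfr: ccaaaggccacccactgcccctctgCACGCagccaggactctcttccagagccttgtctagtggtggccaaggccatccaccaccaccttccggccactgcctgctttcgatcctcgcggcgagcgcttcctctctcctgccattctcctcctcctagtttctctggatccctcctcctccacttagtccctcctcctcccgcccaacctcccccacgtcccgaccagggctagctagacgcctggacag
GCGTG was searched on both strands and was found in 25.9% of 33469 promoter windows of that length. In Areg it lies 94 bases before the start and overlaps by its last letters with TGACGTCA, the palindrome known as the cAMP response element, which 1.59% of the windows hold and which was looked for after the Areg sequence had been seen. In Btc it lies 238 bases before the start, and in Egfr 225 bases before it on the other strand. The window of Hbegf held 1 match, and those of Tgfa and Egf held none. The longer form TNGCGTG, present in 4.09% of windows, was in none of these 6. Ereg and Erbb3 were not examined for motifs.

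Ereg, which encodes epiregulin, showed the largest change of the 8 genes. In the 4 arrays of TCDD 1 nM its signal after background subtraction was 2224 and 1211 in the test channel of rat A and 677 and 509 in that of rat B, against 113, 198, 61.3 and 95.7 in the DMSO channel of the same arrays. The test channel stood above the DMSO channel on all 4 arrays. The log2 ratio of test RNA to DMSO RNA was 3.03 in rat A and 2.55 in rat B at TCDD 1 nM. At PeCDF 2 nM it was 1.52 and 0.62, and at TCDF 10 nM 0.68 and 0.30. In untreated cells it was −0.07 and 0.02, at TCDD 0.01 nM −0.03 and 0.05, at TCDF 0.1 nM 0.25 and 0.03, and at PeCDF 0.02 nM −0.03 and −0.07. Both animals were thus higher than DMSO at each upper dose, and the 4 other groups lay within 0.25 of it.

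Ereg rose 6.91-fold at TCDD 1 nM (log2 2.79 ± 0.18, SE, n = 2 animals; adjusted p = 1.19e-05, limma). At PeCDF 2 nM it rose 2.10-fold (log2 1.07 ± 0.18; adjusted p = 0.00979, limma). The SE is 1 estimate per gene shared by all 7 groups, and the 2 animals at PeCDF 2 nM lay wider apart, with an SD of 0.64. The call at PeCDF 2 nM rested on rat A: without it the log2 ratio was 0.62 with an adjusted p of 0.174 in limma. Without background correction the log2 ratio was 0.34 (adjusted p = 0.253, limma), and with median centring of the arrays the adjusted p was 0.202. Over 16 settings tried, the log2 ratio of Ereg ran from 0.34 to 2.07 at PeCDF 2 nM. At TCDD 1 nM it ran from 1.71 to 4.21, the last against the DMSO channel of other arrays. The folds of Ereg thus depend on the processing. At TCDF 10 nM the mean log2 ratio of 0.49 ± 0.18 did not pass (adjusted p = 0.249, limma; 95% interval 0.10 to 0.88), while with Agilent's own log ratios it was 1.49 and passed (adjusted p = 0.0353, limma).

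Areg encodes amphiregulin, a ligand known to be made by liver cells during regeneration. Its log2 ratios were 2.63 in rat A and 2.31 in rat B at TCDD 1 nM, 1.54 and 0.44 at PeCDF 2 nM, and 0.99 and 0.54 at TCDF 10 nM. At TCDF 0.1 nM they were 0.67 and 0.01, at PeCDF 0.02 nM 0.30 and 0.01, at TCDD 0.01 nM 0.14 and 0.24, and in untreated cells 0.09 and 0.15. All 14 values lay above 0, those of the lower doses and untreated cells between 0.01 and 0.67. Areg rose 5.53-fold at TCDD 1 nM (log2 2.47 ± 0.23, SE, n = 2; adjusted p = 0.000118, limma). At PeCDF 2 nM it rose 1.99-fold (log2 0.99 ± 0.23; adjusted p = 0.0375, limma), where the 2 animals had an SD of 0.78. That call was lost without rat A (log2 0.44, adjusted p = 0.522), without background correction (log2 0.44, adjusted p = 0.169), with median centring (adjusted p = 0.39) and in a limma fit of the furan arrays alone (adjusted p = 0.107). At TCDF 10 nM the log2 ratio was 0.77 ± 0.23 (adjusted p = 0.14, limma; 95% interval 0.26 to 1.27).

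**Figure D1:**
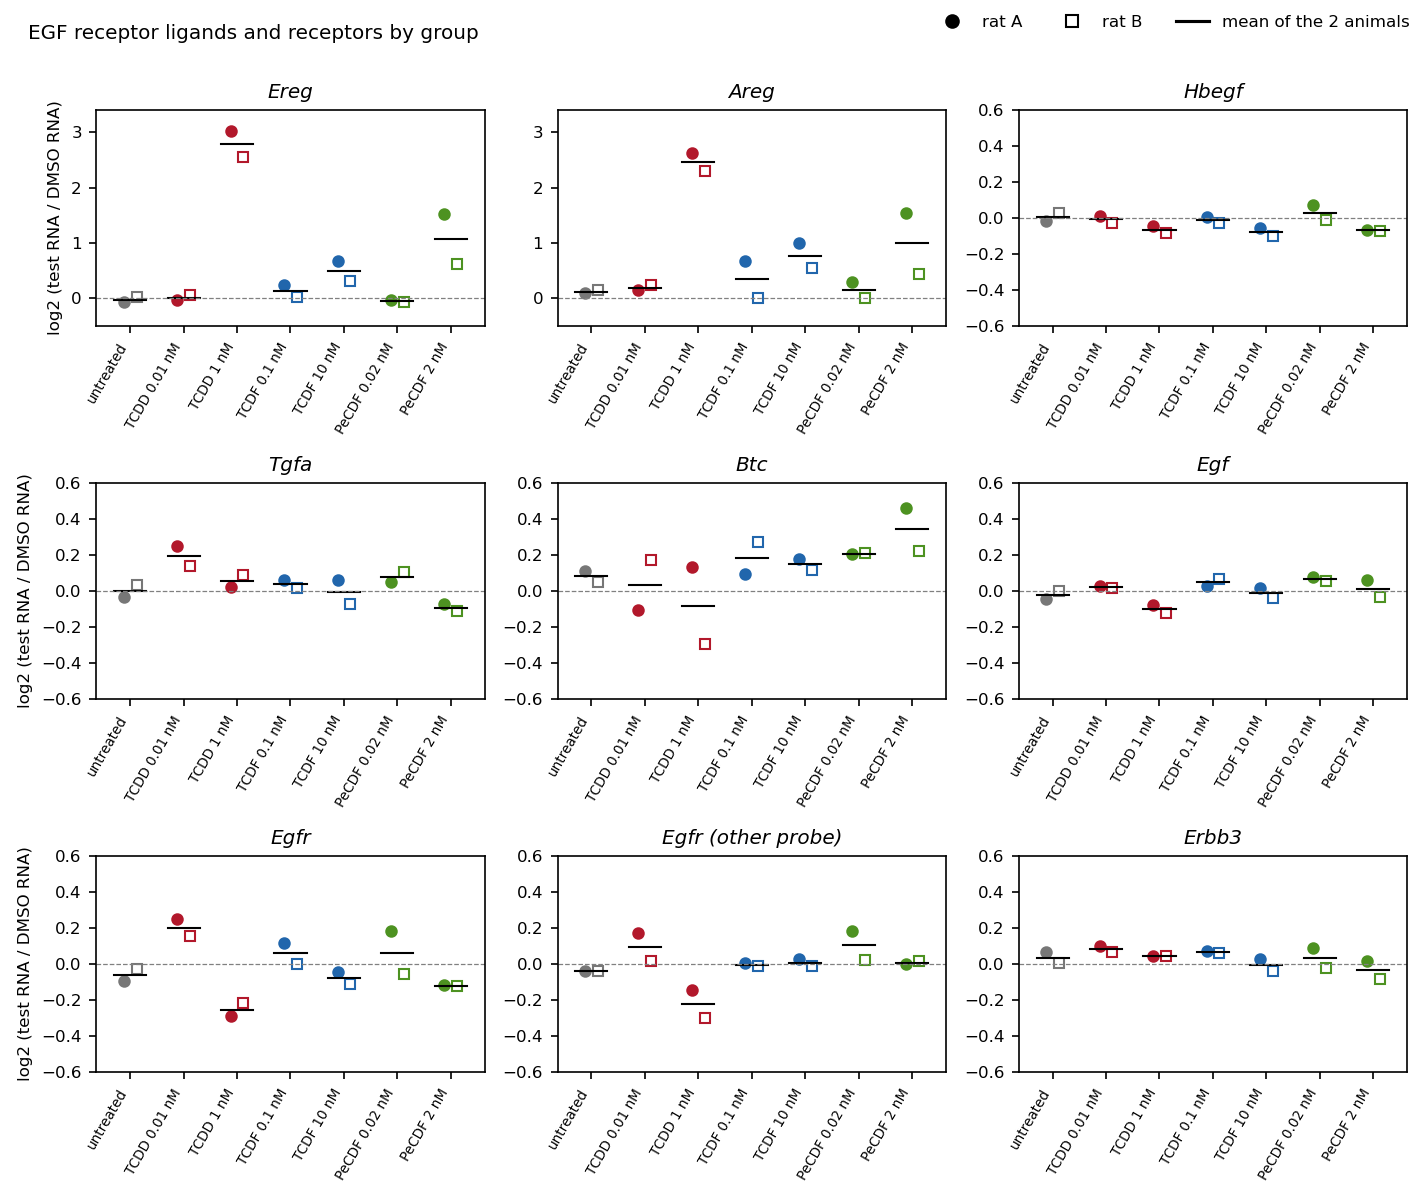
Log2 ratio of test RNA to DMSO RNA (y axis) of each gene in the 7 groups (x axis), for rat A (filled circles), rat B (open squares) and their mean (line). The scale runs to 3.4 for Ereg and Areg and from −0.6 to 0.6 for the others. Ereg and Areg reach 2.79 and 2.47 at TCDD 1 nM, while both Egfr probes lie below 0 there.

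Ereg and Areg followed each other across the 14 animal-level values (Pearson r 0.98, a description across groups set against DMSO cells of the same animals). Rat A lay above rat B for both genes at all 3 upper doses, by 0.90 for Ereg and 1.10 for Areg at PeCDF 2 nM, and by 0.48 and 0.32 at TCDD 1 nM, on the log2 scale. In the order of the means Ereg stood highest at TCDD 1 nM, followed by PeCDF 2 nM and TCDF 10 nM, and the same order held for Areg. The difference between PeCDF 2 nM and TCDF 10 nM did not pass for Ereg (0.58, 95% interval 0.02 to 1.14) or for Areg (0.22, interval −0.49 to 0.93; adjusted p = 1 for both, limma).

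The DMSO channel itself was not level for these genes. On the arrays of TCDD 1 nM the DMSO channel of Ereg gave 61.3 to 198 units, against 7.17 to 26.7 on the 16 arrays of untreated cells and lower doses, and the ranges did not overlap. It amounted to 5.07% to 18.8% of the test signal on those 4 arrays. At TCDF 10 nM the DMSO channel of Ereg gave 10.9 to 49.3 units (median 26.1), and at PeCDF 2 nM 12.2 to 31.9 (median 22.8). The median on the 16 arrays of untreated cells and lower doses was 11.7, and their range overlapped with those of both furans. For Areg the DMSO channel gave 58.6 to 138 units on the TCDD 1 nM arrays, against 30.1 to 93.3 on the 16 others, and these ranges overlapped. The test channel was also set against the DMSO channel of the untreated and lower-dose arrays of the same animal, an alternative chosen after these values had been seen, which takes the DMSO RNA of those arrays as equal. The Ereg probe was well above background in 5 of those 16 DMSO channels, so that its measured difference there (log2 4.21 at TCDD 1 nM; 4.80 in rat A and 3.62 in rat B) rests mostly on a level near background and gives no exact fold. Areg, well above background in all 16, was 8.26-fold higher on that scale (log2 3.05 ± 0.26, SE; adjusted p = 7.47e-05, limma). The cause of the raised DMSO signal was not tested.

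**Figure D2:**
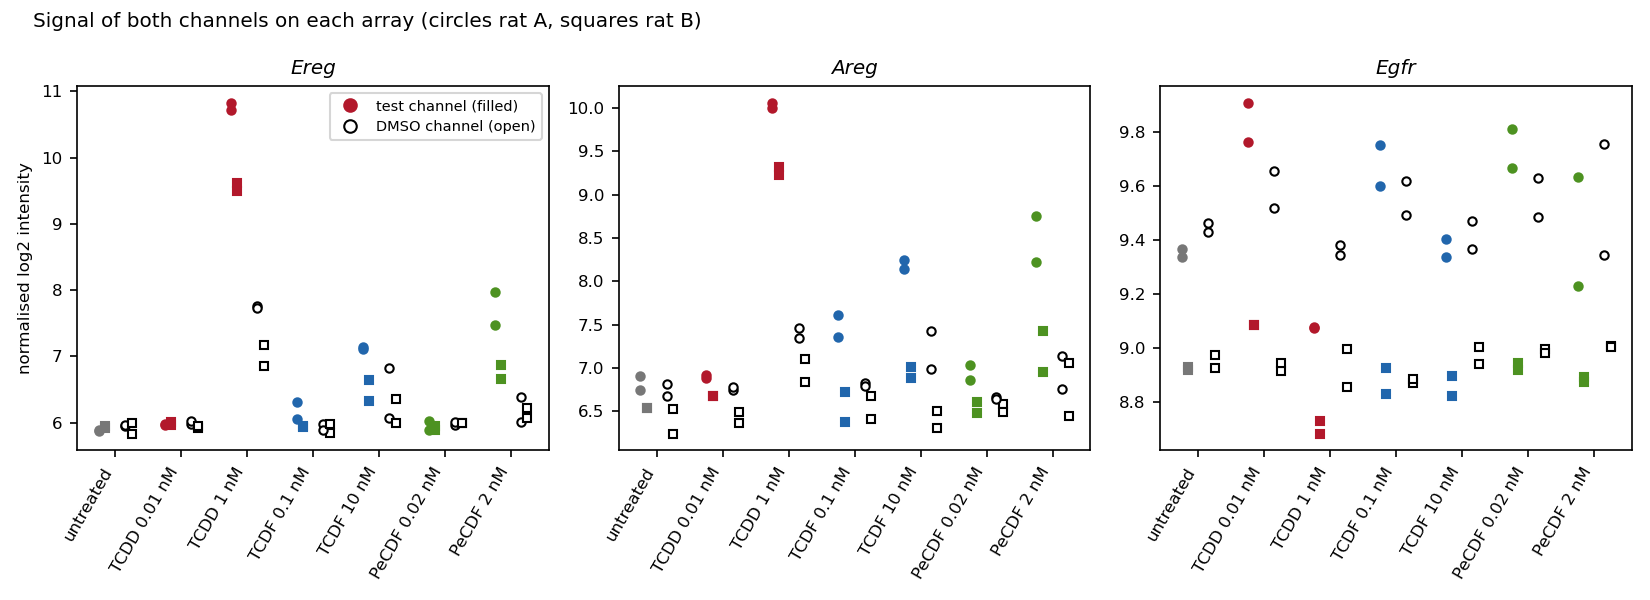
Normalised log2 intensity (y axis) of Ereg, Areg and Egfr on each array of the 7 groups (x axis), with the test channel filled and the DMSO channel open, circles for rat A and squares for rat B. For Ereg the DMSO channel of the TCDD 1 nM arrays lies at 6.85 to 7.76, above its level of 5.84 to 6.02 on the arrays of untreated cells and lower doses.

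The other 4 ligands passed no test against DMSO in the fit of all groups, though Btc, Tgfa and Egf did in other settings. Btc, betacellulin, had log2 ratios of 0.46 and 0.22 at PeCDF 2 nM (mean 0.34 ± 0.10; adjusted p = 0.0823, limma), and it passed in a fit of the furan arrays alone (adjusted p = 0.0415). At TCDD 1 nM its animals lay on either side of DMSO, with 0.13 in rat A and −0.29 in rat B. Tgfa, which encodes TGF-alpha, a growth factor that hepatocytes themselves make, had 0.25 and 0.14 at TCDD 0.01 nM (mean 0.19 ± 0.04; adjusted p = 0.109, limma; 0.0431 without background correction), and 0.02 and 0.09 at TCDD 1 nM. Egf itself had −0.08 and −0.12 at TCDD 1 nM (mean −0.10 ± 0.03; adjusted p = 0.101, limma). Hbegf, heparin-binding EGF, stayed between −0.10 and 0.07 in all 14 values. Over the 7 groups the 95% intervals of the group means reached from −0.15 to 0.10 for Hbegf, from −0.17 to 0.14 for Egf, from −0.19 to 0.29 for Tgfa and from −0.30 to 0.56 for Btc.

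The receptor moved little. Egfr had log2 ratios of −0.29 in rat A and −0.22 in rat B at TCDD 1 nM, against 0.25 and 0.15 at TCDD 0.01 nM and −0.09 and −0.03 in untreated cells. At PeCDF 2 nM it had −0.12 in both animals, and at TCDF 10 nM −0.05 and −0.11. All 4 arrays of TCDD 1 nM lay below 0, at −0.17 to −0.30, and all 4 of TCDD 0.01 nM above it, at 0.14 to 0.25. Egfr fell to 0.839 of its DMSO level at TCDD 1 nM (log2 −0.25 ± 0.05, SE, n = 2; adjusted p = 0.0147, limma). Between the TCDD doses the difference was −0.45 ± 0.08 (upper minus lower; adjusted p = 0.0109, limma), a call that was lost without rat A of TCDD 0.01 nM (adjusted p = 0.0941) and with median centring (0.832). The log2 ratio at TCDD 0.01 nM did not pass on its own (0.20 ± 0.05; adjusted p = 0.204, limma).

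The other Egfr probe gave −0.14 and −0.30 at TCDD 1 nM (log2 −0.22 ± 0.05; adjusted p = 0.0214, limma, with every probe tested). At TCDF 10 nM and PeCDF 2 nM its means were 0.01, against −0.08 and −0.12 with the first probe. With the first probe, the call at TCDD 1 nM was lost without rat A (adjusted p = 0.124), without rat B (0.0826), without background correction (log2 −0.16, 0.0553) and with median centring (0.886), all in limma. Erbb3, a receptor whose own kinase is weak and which signals through its partners, lay between −0.08 and 0.10 in all 14 values. Its probe was well above background in the test channel of 23 of 28 arrays and in the DMSO channel of 25, and its 95% intervals reached from −0.12 to 0.17.

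Of the 8 genes, 2 were called higher at TCDD 1 nM, where 4.63% of all genes tested were, and 1 was called lower, where 5.92% were (10.6% in either direction). At PeCDF 2 nM 2 of 8 were called higher, against 1.72% of all genes (4.39% in either direction). None of the 8 was called at TCDF 10 nM (2.36% of all genes called in either direction), at TCDD 0.01 nM (0.451%), at TCDF 0.1 nM (0.00287%), at PeCDF 0.02 nM (0%) or in untreated cells (0.043%). At an unadjusted p under 0.05 in limma the numbers were 3 of 8 at TCDF 10 nM (12.6% of all genes), 2 at TCDD 0.01 nM (10.5%) and 0 in each of the other 3. The median log2 ratio of the 8 genes at TCDD 1 nM was −0.01, and that of all genes was 0.00 within rounding. The 8 genes were chosen with earlier results of these data known. Ereg met the filter on dim probes in the test channel only at the upper doses. The counts of called members, here and in the comparisons below, are thus descriptions and no test of the set.

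At the upper doses, which differ in nM (the TCDF dose was 10 times and the PeCDF dose 2 times that of TCDD), Ereg stood higher with TCDD 1 nM than with TCDF 10 nM by 2.30 ± 0.25 on the log2 scale (adjusted p = 0.0203, limma) and than with PeCDF 2 nM by 1.72 ± 0.25 (adjusted p = 0.0209, limma). It was the only member called in either comparison, in which 0.0631% and 0.847% of all genes were called. Areg differed by 1.70 ± 0.32 from TCDF 10 nM (adjusted p = 0.0969, limma) and by 1.48 ± 0.32 from PeCDF 2 nM (adjusted p = 0.0666), and with the animal as a block the second of these passed (adjusted p = 0.0326). With Agilent's own log ratios the Ereg differences were 1.76 (adjusted p = 0.312, limma) and 1.18 (adjusted p = 0.251), with an offset of 10 their adjusted p were 0.0597 and 0.106, and with median centring 0.162 and 0.803. The first call was also lost without background correction (adjusted p = 0.0605, limma) and without rat A or rat B of TCDF 10 nM (0.0937 and 0.0568), and the second without rat B of TCDD 1 nM (0.0749). Against the DMSO channel of the untreated and lower-dose arrays the Areg differences were 2.08 and 1.81 and passed (adjusted p = 0.0347 and 0.0354, limma), and those of Ereg were 3.36 and 2.92.

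Between the doses of a compound, which lie 100-fold apart, Ereg and Areg rose with TCDD, by 2.78 ± 0.25 (adjusted p = 0.000327, limma) and 2.27 ± 0.32 (adjusted p = 0.00411; 0.0908 with median centring), and Egfr fell, so that 3 of 8 members were called, against 3.74% of all genes. For PeCDF the steps were 1.12 ± 0.25 for Ereg (adjusted p = 0.226, limma) and 0.84 ± 0.32 for Areg (adjusted p = 0.805), and for TCDF 0.36 and 0.43. None of the 8 was called in the PeCDF step (0.0833% of all genes), the TCDF step (0.089%) or between PeCDF 2 nM and TCDF 10 nM (0%). At an unadjusted p under 0.05 in limma these held 4, 0 and 1 of the 8, against 5.14%, 4.54% and 2.84% of all genes.

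Areg, Ereg and Btc lie side by side on rat chromosome 14, in the order Btc, Areg, Ereg and then Epgn, a further EGF receptor ligand. These neighbours were chosen after their values had been seen. At TCDD 1 nM the outer genes of the ligand cluster lay near DMSO (Btc −0.08 ± 0.10, Epgn 0.06 ± 0.04), with both inner genes called. Beyond Epgn and Mthfd2l (0.02 ± 0.04) lie the chemokine genes Cxcl2, Cxcl1 and Cxcl3, which attract neutrophils, and these rose too: Cxcl2 by 1.91 ± 0.39 (adjusted p = 0.0113, limma), Cxcl1 by 1.76 ± 0.22 (adjusted p = 0.000987) and Cxcl3 by 1.16 ± 0.14 (adjusted p = 0.000574). Pf4 and Ppbp, the next chemokine genes, lay at 0.03 and 0.02. In rats A and B, Cxcl2 had 2.56 and 1.26 at TCDD 1 nM, Cxcl1 2.16 and 1.37, and Cxcl3 1.21 and 1.10. Cxcl1 also rose at TCDF 10 nM (1.19, adjusted p = 0.0267, limma). Only rat A had a Cxcl1 value at PeCDF 2 nM after marked spots were dropped, at 1.44, with its spread taken wholly from the other groups.

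**Figure D3:**
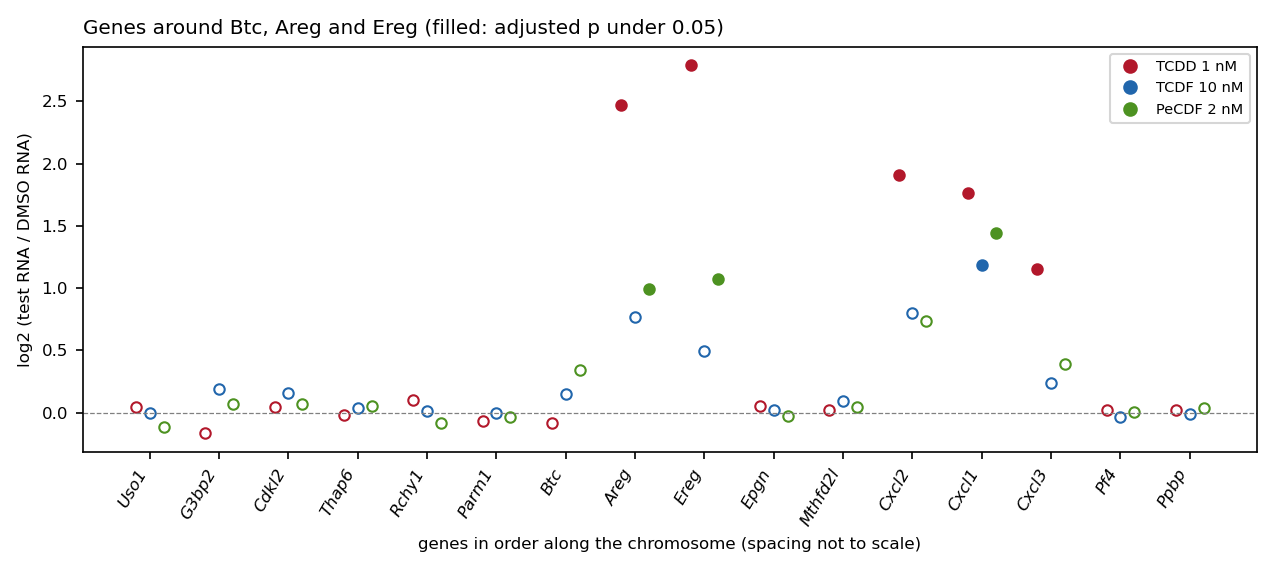
Log2 ratio to DMSO (y axis) of the genes around Btc, Areg and Ereg in their order along the chromosome (x axis, spacing not to scale) at TCDD 1 nM, TCDF 10 nM and PeCDF 2 nM. Filled points passed an adjusted p of 0.05. Areg, Ereg, Cxcl2, Cxcl1 and Cxcl3 rise at TCDD 1 nM, with genes near 0 between and around them, and the Cxcl1 point at PeCDF 2 nM is rat A alone.

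Other genes of the pathway are read against the share of all genes called at TCDD 1 nM, 4.63% higher and 5.92% lower. Of 2 tested ErbB ligands outside the 8, Nrg1, a ligand of Erbb3 and Erbb4, had log2 ratios of 0.98 and 0.69 at TCDD 1 nM and rose by 0.83 ± 0.10 (adjusted p = 0.000724, limma); at PeCDF 2 nM it rose by 0.52 (adjusted p = 0.0212). The receptors Erbb2 and Erbb4 lay at 0.01 and −0.03 at TCDD 1 nM. Of 7 tested genes of ligand shedding, Adam9, a membrane protease, fell by 0.28 ± 0.06 (adjusted p = 0.00929, limma) and Rhbdf1, a partner of the sheddase Adam17, rose by 0.19 ± 0.04 (adjusted p = 0.0112), while Adam17 itself lay at 0.02. Among 18 feedback inhibitors 2 fell at TCDD 1 nM, where 5.92% of all genes did, and none rose: Lrig3 by 0.36 ± 0.05 (adjusted p = 0.0013, limma) and Cblb, a ubiquitin ligase that marks active receptors for degradation, by 0.29 ± 0.04 (adjusted p = 0.00147). Cblb also fell at PeCDF 2 nM (by 0.41) and at TCDF 10 nM (by 0.21). Of 33 adaptors and kinases, Stat3 fell by 0.25 ± 0.04 (adjusted p = 0.00465, limma) and Eps15, an adaptor of receptor uptake, rose by 0.16 ± 0.04 (adjusted p = 0.043), a share below the 10.6% of all genes called in either direction.

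Transcripts known to respond to ERK were measured for 21 of 22 genes. At TCDD 1 nM 5 rose and 2 fell, against 4.63% and 5.92% of all genes, with a list median of 0.08 (0.00 within rounding over all genes). Phlda1 had log2 ratios of 1.50 in rat A and 0.98 in rat B (mean 1.24 ± 0.21; adjusted p = 0.00589, limma), and Ier3, an immediate-early gene, had 1.19 and 0.68 (mean 0.93 ± 0.16; adjusted p = 0.00358). Dusp5, a phosphatase of ERK in the nucleus, rose by 0.38 ± 0.05 (adjusted p = 0.000967) and Fosl1, a component of AP-1, by 0.45 ± 0.10 (adjusted p = 0.0144). Dusp1, another phosphatase of MAP kinases, went the other way, with −0.67 and −1.14 (mean −0.91 ± 0.11; adjusted p = 0.000515, limma). At PeCDF 2 nM 2 of the 21 rose and 1 fell, against 4.39% of all genes in either direction, and at TCDF 10 nM none passed, against 2.36%.

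**Figure D4:**
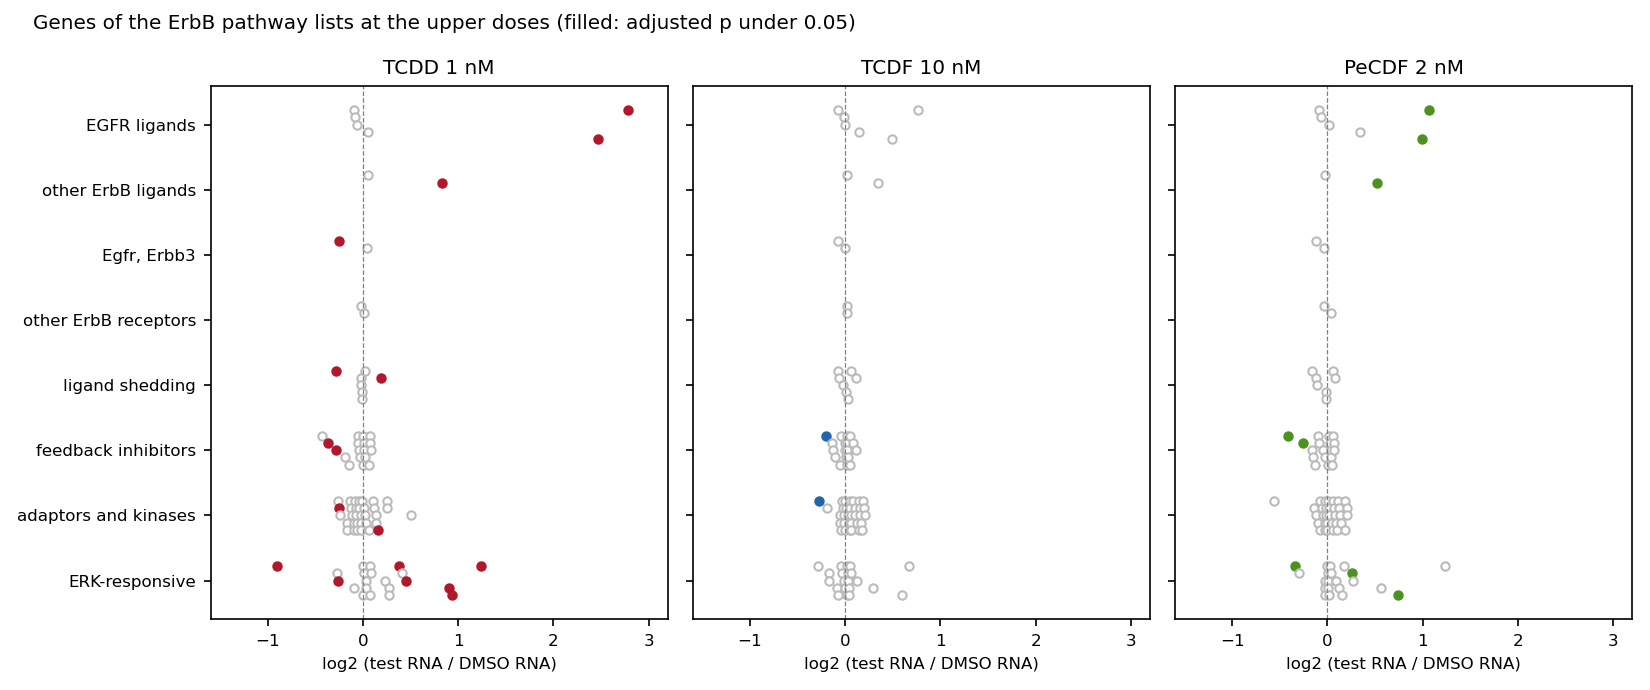
Log2 ratio to DMSO (x axis) of each tested gene of the ErbB pathway lists (rows) at TCDD 1 nM, TCDF 10 nM and PeCDF 2 nM. Filled points passed an adjusted p of 0.05. At TCDD 1 nM Ereg and Areg lie at 2.79 and 2.47, and the feedback inhibitors, adaptors and kinases lie between −0.43 (Usp8) and 0.50 (Ptpn11).

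By Pearson correlation over the 14 animal-level log2 ratios, among 14898 named genes without gaps and leaving out the 8 members themselves, the genes most like Ereg were Pou3f1 (0.98), Slc7a11 (0.95), Klf4 (0.95) and Cd44 (0.94). Those most like Areg were Gng8 (0.96), Pdgfa (0.95), Cxcl3 (0.95) and Map3k8 (0.95). Egfr was most like Cdkn1a (0.93), Ece1 (0.93), Phlpp1 (0.92) and Disp1 (0.91), and Erbb3 was most like Ccdc63 (0.92), Gnal (0.89), Catsper3 (0.88) and Cldn19 (0.85). Ereg and Areg were more like each other (0.98) than Areg was like any of these, and the r of Ereg with Pou3f1 lay just below theirs. The points share 2 animals and their DMSO cells, and for Ereg and Areg they are set mainly by the upper doses. The r listed are the highest among the 14898 genes compared. Erbb3 lay near background, with all values between −0.08 and 0.10. The genes most like it lay between −0.025 (Cldn19) and 0.08 (Catsper3) at TCDD 1 nM. Its r thus describe small differences, and whether they go beyond noise was not tested.

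The exposure was checked on Cyp1a1, Cyp1a2 and Cyp1b1, cytochromes under AHR control, all 3 of which were called higher at TCDF 10 nM and PeCDF 2 nM, and Cyp1a2 and Cyp1b1 at TCDD 1 nM. Cyp1a1 at TCDD 1 nM had a value in rat B alone (log2 1.70). At the lower doses, where no member was called, Cyp1a1 rose 3.27-fold and Cyp1a2 1.9-fold at TCDD 0.01 nM, and Cyp1a1 2.37-fold at TCDF 0.1 nM (adjusted p = 0.00023, 0.00776 and 0.0483, limma). Cyp1a1 was the only gene called at TCDF 0.1 nM. No gene was called there with Agilent's log ratio or with median centring, and more were in array-level fits. None of these cytochromes was called at PeCDF 0.02 nM. Cyp1b1 rose 15.2-fold at TCDD 1 nM, 4.21-fold at TCDF 10 nM and 6.86-fold at PeCDF 2 nM. All 15 hepatocyte markers were well above background in every DMSO channel, and at TCDD 1 nM 1 of them rose and 3 fell, where 4.63% and 5.92% of all genes did. Markers of other liver cells were measured too, and each tested marker was above background on at least 1 array in the DMSO channel. At TCDD 1 nM, 5 of 15 Kupffer cell and leukocyte markers, 3 of 12 stellate cell and fibroblast markers and 2 of 11 cholangiocyte markers fell and none rose, against 5.92% of all genes lower, and none of 8 endothelial markers was called. The summed signal of the lists relative to DMSO, on the log2 scale in rats A and B, was −0.22 and −0.17 for the Kupffer cell and leukocyte list, −0.23 and −0.29 for the stellate cell and fibroblast list, −0.28 and −0.42 for the cholangiocyte list and −0.06 and 0.09 for the endothelial list, against −0.13 and −0.09, −0.02 and −0.06, −0.03 and −0.03, and −0.02 and −0.02 in untreated cells. At TCDF 10 nM the Kupffer cell, stellate cell and cholangiocyte lists gave −0.10 and −0.22, −0.13 and −0.18, and −0.17 and −0.12. At PeCDF 2 nM these lists gave −0.01 and −0.21, −0.05 and −0.17, and −0.19 and −0.06. The part of these cells in the levels of the 8 genes was not tested, and fewer cells of a type and less RNA per cell cannot be told apart in such samples.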

How the data were processed

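RNA of 7 groups of rat hepatocytes was measured on 28 Agilent arrays, each against DMSO RNA of the same animal. Spot means and local backgrounds are deposited as raw intensity, per the file headers. The deposited series table holds log10 ratios, which differed from the scanner files' own log10 ratio, turned to test over DMSO, by at most 4.995e-06. Feature Extraction is A.7.5.1 per the file headers and 9.1 per the submitters' processing notes.

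The analysis used limma 3.58.1 in R 4.3.3, and files were read with data.table (release 1.17.8). After normexp background correction (offset 50), arrays were normalised by loess with control spots at weight 0, and 1067 marked spots (0.0921%) were dropped. Spots of a probe and both orientations of an animal were averaged, giving 14 animal-level log2 ratios of test RNA to DMSO RNA. Probes had to be well above background in the test channel of all 4 arrays in some group, or in at least 14 of 28 DMSO channels, and the brightest probe of a gene name was used (34849 genes, 15249 of them with a symbol from RefSeq by accession, identifier, symbol or synonym). Group means were fitted together in limma with empirical Bayes, so that each SE rests on a spread shared by all groups. A gene was called where its p, adjusted by Benjamini-Hochberg across the whole table, was under 0.05. The fit was tested on simulated data. Channel levels were taken after loess and Aquantile normalisation. Precision is limited by 2 animals per group.

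Genes were named by a rule: all members and their probes, up to 5 genes of each pathway list with the smallest p at TCDD 1 nM among those called at an upper dose, the 4 genes most correlated with Ereg, Areg, Egfr and Erbb3, and the 3 cytochromes. The members and lists were chosen with earlier results of these data known. Animals pair the groups, since the same 2 rats gave every group, per the labels. Deviations of rat A from the group means correlated between −0.39 and 0.56 (median 0.13) over 21 pairs of groups. Alternatives were Agilent's log ratio, the deposited values, other background, offset, centring, filter, probe and spot settings, the animal as a replicate block, single animals left out, array-level fits, single sessions, and another DMSO channel.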

Additional observations from a re-analysis of the deposited data

Results flagged for a closer look

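Among 63 sets of 4 arrays (9 probes in 7 groups), 4 held a single array far from the other 3. Chance flags about 1 in 20 among sets of 4 independent values. Each set here held dye-swapped arrays of the same animals, so that this rate is only a guide. Ereg at TCDF 10 nM had a log2 ratio of 1.03 on 1 array of rat A, against 0.28 to 0.33 on the other 3. In the dye-swapped array of that animal it was 0.33. Ereg in untreated cells had 0.087 on 1 array of rat B, against −0.07 to −0.05 on the others, and its probe was well above background in none of the 4 test channels. Egfr at TCDF 10 nM had 0.0381 on 1 array of rat A, against −0.13 to −0.11. Erbb3 at PeCDF 2 nM had 0.11 on 1 array of rat A, against −0.09 to −0.07.

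In 24 tests of a difference between compounds at their upper doses, 2 passed, both of Ereg. It was higher with TCDD 1 nM than with TCDF 10 nM by 2.30 ± 0.25 (adjusted p = 0.0203, limma) and than with PeCDF 2 nM by 1.72 ± 0.25 (adjusted p = 0.0209, limma), on the log2 scale. TCDD and the furans were read in different sessions, so that compound and session cannot be told apart.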

How the results depend on the processing

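Of 175 repeats of the 10 called member results under other settings, 26 lost the call and none turned its direction. Ereg and Areg at TCDD 1 nM kept it in all 16 and 17 settings tried (log2 1.71 to 4.21 and 1.38 to 3.05), and Ereg between the TCDD doses in all 18. Of 94 uncalled member results in 1660 repeats, 29 repeats gained a call and 85 changed sign without one. The stricter filter dropped Ereg and Erbb3, which have no value there. The probes of Ereg and Erbb3 lie near background, which limits what they can show. Ereg met the filter on dim probes in the test channel only at TCDD 1 nM, TCDF 10 nM and PeCDF 2 nM. Its DMSO channel was well above background on 16 of 28 arrays, where 14 were asked for. On the 16 arrays of untreated cells and lower doses it was so on 5.

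Counts of called genes over all genes were 3677 for TCDD 1 nM, 823 for TCDF 10 nM, 1530 for PeCDF 2 nM, 157 for TCDD 0.01 nM, 1 for TCDF 0.1 nM, 0 for PeCDF 0.02 nM and 15 for untreated cells. They were 22 for TCDD 1 nM minus TCDF 10 nM, 295 for TCDD 1 nM minus PeCDF 2 nM, 0 for PeCDF 2 nM minus TCDF 10 nM, and 1303, 31 and 29 for the dose steps of TCDD, TCDF and PeCDF. The cause of the following shifts was not tested. With Agilent's log ratio, and equally with the deposited values, they were 184 for untreated cells, 0 for TCDF 0.1 nM, 421 for TCDF 10 nM and 736 for PeCDF 2 nM. The same setting gave 2 and 7 for TCDD minus TCDF and minus PeCDF, and 732, 9 and 7 for the steps. Median centring left 214 for TCDD 1 nM (106 higher), 9 for TCDF 10 nM (8 higher), 4 for PeCDF 2 nM (3 higher), 0 for untreated cells and for both TCDD 0.01 nM and TCDF 0.1 nM, 1 and 0 for TCDD minus TCDF and minus PeCDF, and 6, 0 and 1 for the steps. Without background correction TCDF 0.1 nM and PeCDF 0.02 nM had 2 each, TCDD minus TCDF 5, TCDD minus PeCDF 182 and the PeCDF step 17. An offset of 10 gave 315 for TCDF 10 nM, 931 for PeCDF 2 nM, 7 and 63 for TCDD minus TCDF and minus PeCDF, and 13 and 15 for the TCDF and PeCDF steps. Agilent's log ratio, no background correction and that offset gave 111, 417 and 111 genes higher of those called at TCDF 10 nM, against 385 of 823.

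Without a filter the counts were 28 for untreated cells and 0 for TCDF 0.1 nM, and the stricter filter gave 1 for untreated cells and 67 for TCDD 0.01 nM. Every probe on its own and the brightest unsaturated probe both left 0 for TCDF 0.1 nM. Array-level fits, in which dye-swapped arrays add to n, gave 277 for untreated cells, 714 for TCDD 0.01 nM, 6437 for TCDD 1 nM, 622 for TCDF 0.1 nM, 2804 for TCDF 10 nM, 602 for PeCDF 0.02 nM and 4495 for PeCDF 2 nM with a dye term, 2526, 3879 and 22 for the compound differences and 3627, 434 and 569 for the steps. With a separate dye term for each of the 2 reading sessions these were 267, 659, 6321, 554, 2682, 489 and 4369, then 2399, 3709 and 14, then 3478, 400 and 521. Neither fit held a term for the day or the session itself. In these 2 fits Ereg passed at TCDF 10 nM (adjusted p = 0.0349 and 0.0352, limma), as did Areg (0.00253 and 0.00341). Further passes with the single dye term were Btc at PeCDF 2 nM (0.00123, limma), Tgfa and Egfr at TCDD 0.01 nM (0.00399 and 0.0167) and Egf at TCDD 1 nM (0.0289). Others were the Ereg PeCDF step (0.00286, limma), TCDD minus TCDF of Areg (7.15e-05) and TCDD minus PeCDF of Areg and Btc (0.000149 and 0.00589). All of them passed with the dye terms per session too. Session 1 alone gave 0 for untreated cells, 14 for TCDD 0.01 nM and 699 for the TCDD step. Session 2 alone gave 0 for TCDF 0.1 nM, 471 for TCDF 10 nM, and 14 and 13 for the TCDF and PeCDF steps. Ereg and Egfr at TCDD 1 nM passed within session 1 (adjusted p = 0.000645 and 0.0223, limma), and Ereg at PeCDF 2 nM within session 2 (0.0373). Against the DMSO channel of the untreated and lower-dose arrays there were 74 for untreated cells, 56 for TCDD 0.01 nM, 3 for TCDF 0.1 nM and 1009 for PeCDF 2 nM. That setting gave 319 and 738 for TCDD minus TCDF and minus PeCDF, and 661 for the TCDD step. This alternative and the dye terms per session were chosen after seeing the data.

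With the animal as a replicate block the counts were 26 for untreated cells, 2 for TCDF 0.1 nM, 36 for TCDD 1 nM minus TCDF 10 nM and 49 for the PeCDF step, and the block changed no call of a member apart from Areg between TCDD 1 nM and PeCDF 2 nM.

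Leaving out single animals, with the lone animal assumed to vary like the other groups, gave 474 to 767 for untreated cells, 245 to 601 for TCDD 0.01 nM, 1595 to 3886 for TCDD 1 nM, 34 to 42 for TCDF 0.1 nM, 64 to 260 for TCDF 10 nM, 0 to 157 for PeCDF 0.02 nM and 136 to 658 for PeCDF 2 nM. The ranges were 3 to 1771, 6 to 2295 and 0 to 23 for TCDD minus TCDF, TCDD minus PeCDF and PeCDF minus TCDF, and 553 to 2387, 0 to 57 and 2 to 125 for the steps of TCDD, TCDF and PeCDF.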

Other observations

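Cyp1b1 showed a raised DMSO channel on the arrays of TCDD 1 nM as Ereg did. Its DMSO signal after background subtraction was 188 to 544 units on those 4 arrays, against 8.83 to 82.8 on the 16 arrays of untreated cells and lower doses, and it was 2.39% to 10.5% of the test signal. At TCDF 10 nM the DMSO signal of Cyp1b1 was 42.4 to 90.3 units, and at PeCDF 2 nM 39.1 to 99.5. The medians there were 78.9 and 75.6, against 30.3 on the 16 arrays. Set against the DMSO channel of those 16 arrays, Cyp1b1 stood 79.4-fold higher at TCDD 1 nM, where the ratio within the arrays gave 15.2-fold. This takes their DMSO RNA as equal, which the labels do not state. Only 12 of the 16 measured Cyp1b1 well above background, so that 79.4 is not an exact fold. The cause of the raised DMSO channel was not tested.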
